A study of Mus musculus with 16 samples.

Results

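The RNA of 9 genes that detect double-stranded RNA or act in the interferon response was followed in mouse embryonic stem cells (ESCs), out of 26127 genes in the deposited table. The genes were chosen by name: the sensors Ifih1, Ddx58 and Eif2ak2, the adaptor Mavs, the transcription factors Irf3 and Irf7, the interferon-stimulated genes Isg15 and Bst2, and the RNA-editing enzyme Adar. Of the 9, the 6 genes Ddx58, Eif2ak2, Mavs, Irf3, Bst2 and Adar were expressed strongly enough to be tested, while Ifih1, Irf7 and Isg15 were not.

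Double-stranded RNA in the cytosol is bound by the helicases encoded by Ifih1 (MDA5) and Ddx58 (RIG-I). Both signal through the mitochondrial adaptor Mavs to the transcription factors Irf3 and Irf7 and so switch on type I interferon. Secreted interferon then acts through its receptor and the JAK-STAT pathway to induce many genes, including Isg15 and Bst2, and many of the sensors themselves. ESCs are known for a weak interferon response compared with differentiated cells, and in other cell types loss of DNA methylation is known to raise double-stranded RNA from transposable elements.

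Ribosomal RNA was removed from total RNA, and 16 libraries were sequenced in 3 groups: 8 wild-type (WT) libraries, 4 libraries lacking Dnmt1, the enzyme that maintains DNA methylation (Dnmt1 KO), and 4 libraries lacking Dnmt1 together with Dicer, the nuclease that cuts double-stranded RNA into small RNAs (Dicer/Dnmt1 KO). The comparisons ask how the genes that sense double-stranded RNA stand after loss of Dnmt1, and after the additional loss of Dicer. The labels give the strain as E14 in all 3 groups, whereas the methods of the study give C57BL/6 for the parent line with loxP-flanked Dnmt1 alleles. They describe CRISPR/Cas9 derivatives of that parent both with floxed Dicer and with Dicer deleted constitutively, and the labels do not say which of them was sequenced as Dicer/Dnmt1 KO. Dnmt1 was deleted in that system by Cre induced with tamoxifen, and the cells grew in serum with LIF, with or without feeder cells. The labels give neither the days after induction nor the use of feeders, so each knockout group may stand for 1 line. Each library carries a number and a letter A or B (1 to 4 in WT, 1 and 2 in each knockout). Nothing says that A and B were separate cultures, and p-values over libraries then measure only the spread between these samples.

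The promoters of the genes that the results turn on are shown first, because interferon acts on such genes through the interferon-stimulated response element (ISRE), searched here as GAAANNGAAA on both strands, where N is any base. The sequences are the RefSeq reference for build GRCm38.p6, 250 bases before to 50 bases after the transcription start, read 5′ to 3′ along the gene, and capitals mark ISRE matches.
Ddx58, minus strand, chr4:40239776-40240075: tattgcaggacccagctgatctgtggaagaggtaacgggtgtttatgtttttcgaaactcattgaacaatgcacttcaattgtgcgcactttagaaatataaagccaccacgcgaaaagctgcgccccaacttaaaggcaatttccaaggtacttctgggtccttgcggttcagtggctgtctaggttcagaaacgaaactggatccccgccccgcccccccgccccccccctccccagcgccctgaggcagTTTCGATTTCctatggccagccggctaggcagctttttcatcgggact
Eif2ak2, minus strand, chr17:78882523-78882822: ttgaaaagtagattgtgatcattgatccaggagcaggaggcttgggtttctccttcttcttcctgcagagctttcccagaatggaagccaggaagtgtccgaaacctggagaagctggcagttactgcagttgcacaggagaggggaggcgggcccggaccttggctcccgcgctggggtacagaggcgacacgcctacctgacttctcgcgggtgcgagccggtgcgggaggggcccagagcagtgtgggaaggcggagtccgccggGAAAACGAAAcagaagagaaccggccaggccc
Bst2, minus strand, chr8:71537423-71537722: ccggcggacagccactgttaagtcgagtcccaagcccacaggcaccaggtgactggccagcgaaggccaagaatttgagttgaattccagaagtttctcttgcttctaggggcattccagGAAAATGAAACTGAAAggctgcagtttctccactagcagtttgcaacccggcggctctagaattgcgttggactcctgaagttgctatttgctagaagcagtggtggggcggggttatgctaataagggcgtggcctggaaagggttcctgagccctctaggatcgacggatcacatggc
Isg15, minus strand, chr4:156200769-156201068: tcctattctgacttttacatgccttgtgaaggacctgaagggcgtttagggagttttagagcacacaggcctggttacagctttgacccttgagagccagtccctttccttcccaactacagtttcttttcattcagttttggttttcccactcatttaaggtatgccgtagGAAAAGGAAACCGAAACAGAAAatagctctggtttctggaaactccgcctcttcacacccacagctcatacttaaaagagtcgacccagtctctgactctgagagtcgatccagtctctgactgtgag

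All 9 genes matched the promoter table, with 11 promoters, and 5 genes held an ISRE match, beside 3.44% of the 32851 promoters of the same length in the table. Isg15 held 3 overlapping matches beginning 78 bases before the start, and Bst2 held 2 overlapping matches beginning 130 bases before it. The single matches of Ddx58, on the opposite strand, Eif2ak2 and Ifih1 began at positions 3, 19 and 33 counted from the start. The promoters of Mavs, Irf3, Irf7 and Adar held no match in this window. The gamma-activated site TTCNNNGAA, which reads the same on both strands, matched in 3 genes (Bst2, Eif2ak2 and 1 of the 3 promoters of Adar), beside 8.3% of all promoters. CpG dinucleotides, the substrate of Dnmt1, numbered 6 in the promoter of Isg15, 7 in Irf7, 11 in Bst2, 14 in Ifih1, 15 in Ddx58, 17 in Eif2ak2, 18 in Irf3 and 19 in Mavs, and 6, 12 and 34 in the promoters of Adar. The median over all promoters was 7, with quartiles of 3 and 20, so that 1 promoter of Adar alone among the 11 lay above the upper quartile. A match is a description of the letters and was not tested as a binding site.

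The libraries held 31.5 to 52.5 M reads, of which 44.2% to 48.7% fell in the listed genes. A count of 0 allows up to 3 reads, or 0.0571 to 0.0954 RPM (the reads-per-million unit of the deposited values), counting error only. Dnmt1 was 7.40 to 7.66 log2 RPM in WT numbers 1 to 3, but 5.69 and 5.55 in WT 4A and WT 4B, against 4.17 to 4.63 in Dnmt1 KO and 4.49 to 4.64 in Dicer/Dnmt1 KO. WT number 4 therefore stood apart in the targeted gene, and results that changed without it are given both ways. Dicer1 was 3.68 to 4.06 in Dicer/Dnmt1 KO, below all other libraries (4.56 to 5.68). Libraries A and B of 1 number differed by more than sampling noise (chi-square per gene 2.92 to 25.65). They differed mostly by less than libraries of different numbers within a group (17.52 to 175.66). Calls of the 6 tested genes and counts over the lists are therefore also given with A and B averaged. Calls of single list genes are given that way only in part. The fit to 16 libraries called 41.0% of 12892 tested genes changed in Dnmt1 KO against WT, 61.9% in Dicer/Dnmt1 KO against WT and 36.3% between the knockouts, which is the background for every count below.

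In Dnmt1 KO, 3 of the 6 tested genes changed (beside 41.0% of all tested genes): Ddx58 rose, and Bst2 and Irf3 fell. In Dicer/Dnmt1 KO against WT, 5 of 6 changed (beside 61.9%): Ddx58, Eif2ak2 and Mavs rose, and Bst2 and Irf3 fell. Between the knockouts, Ddx58, Eif2ak2 and Mavs were higher in Dicer/Dnmt1 KO (3 of 6, beside 36.3%). No change reached 2-fold. Averaging A and B left 0, 3 and 0 genes called in the 3 comparisons, beside 17.7%, 39.8% and 9.5% of all tested genes, and the 3 were Ddx58, Eif2ak2 and Bst2 in Dicer/Dnmt1 KO against WT. With the library number as a random block, 1, 3 and 0 genes were called (beside 21.1%, 44.6% and 16.4%), and without WT number 4, 2, 5 and 3 (beside 44.9%, 61.2% and 44.8%). The median absolute log2 change of the 6 genes was 0.25, 0.40 and 0.28, beside 0.26, 0.40 and 0.29 over all tested genes. The comparisons with WT share the WT libraries and are not independent of each other.

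**Figure D1:**
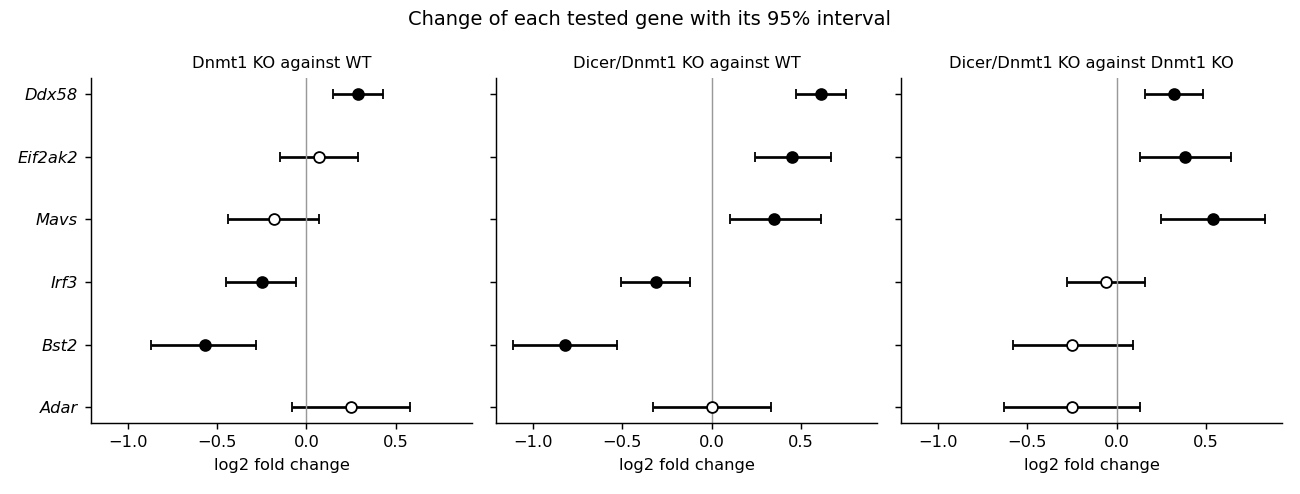
The log2 fold change of each tested gene is plotted on the horizontal axis for the 3 comparisons, with its 95% interval from the fit to 16 libraries. Filled points passed an adjusted p of 0.05. Ddx58 lay above 0 and Irf3 and Bst2 below 0 in both comparisons with WT, while Mavs and Eif2ak2 lay above 0 in the comparisons of Dicer/Dnmt1 KO.

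Ddx58 (ENSMUSG00000040296, NCBIM37 chr4:40150806-40186861, minus strand, 18 exons in its longest transcript), which encodes the RIG-I helicase, rose in steps across the groups. Its lowest, median and highest WT values were 3.98, 4.12 and 4.23 log2 RPM. Dnmt1 KO libraries 1A, 1B, 2A and 2B had 4.49, 4.41, 4.47 and 4.26. Dicer/Dnmt1 KO libraries, in the same order, had 4.66, 4.75, 4.74 and 4.77. None of the groups overlapped: every Dnmt1 KO library was above every WT library, and every Dicer/Dnmt1 KO library above every Dnmt1 KO library. Groups that do not overlap were found for 23.2%, 41.4% and 43.2% of all tested genes in Dnmt1 KO against WT, Dicer/Dnmt1 KO against WT and Dicer/Dnmt1 KO against Dnmt1 KO. The level was 1.23-fold higher in Dnmt1 KO than in WT (log2 difference 0.29, SE 0.07, adjusted p = 0.00203), 1.53-fold higher in Dicer/Dnmt1 KO than in WT (0.61, SE 0.07, adjusted p = 6.64e-07) and 1.25-fold higher in Dicer/Dnmt1 KO than in Dnmt1 KO (0.32, SE 0.08, adjusted p = 0.004). After averaging A and B, only the difference between Dicer/Dnmt1 KO and WT stayed past the threshold (adjusted p = 0.00274), while the other two had adjusted p = 0.099 and 0.141. In bulk RNA, more cells that express a gene and more of its RNA per cell cannot be told apart, here and below.

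Eif2ak2 (ENSMUSG00000024079, chr17:79251904-79281913, minus strand, 16 exons) encodes PKR, a kinase that binds double-stranded RNA and halts translation through the initiation factor eIF2 alpha. It spanned 2.71, 2.93 and 3.14 log2 RPM (lowest, median, highest) in WT. Dnmt1 KO libraries 1A, 1B, 2A and 2B had 3.13, 3.08, 2.89 and 2.92, inside the WT range. Dicer/Dnmt1 KO libraries had 3.22, 3.21, 3.53 and 3.59, all above every WT and Dnmt1 KO library. Within Dicer/Dnmt1 KO the libraries split by number, with number 2 above number 1. The level was 1.37-fold higher in Dicer/Dnmt1 KO than in WT (log2 difference 0.45, SE 0.10, adjusted p = 0.00116), which kept adjusted p = 0.0402 with A and B averaged. That call was lost with A and B averaged and WT number 4 left out as well (adjusted p = 0.0513). Against Dnmt1 KO it was 1.30-fold higher (0.38, SE 0.12, adjusted p = 0.0192), but adjusted p was 0.191 with A and B averaged, and this call was lost when any of 4 libraries was left out (Dnmt1 KO 2A or 2B, Dicer/Dnmt1 KO 2A or 2B, adjusted p = 0.0509 to 0.0665) and after removal of the trend with transcript length (0.29, adjusted p = 0.0507). Between Dnmt1 KO and WT the difference was 0.07, with a 95% interval of -0.15 to 0.29. Eif2ak2 overlaps Gm16825 on the opposite strand over 532 bases, and Gm16825 averaged 0.0762 RPM.

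Ifih1 (ENSMUSG00000026896, chr2:62433850-62484312, minus strand, 16 exons), encoding the MDA5 helicase, was low, with 6 to 42 reads in a library and 1 of 16 libraries above 1 RPM. WT values were -2.21, -1.06 and 0.19 log2 RPM (lowest, median, highest), Dnmt1 KO had -0.95, -2.21, -1.75 and -2.46, and Dicer/Dnmt1 KO had -0.08, -1.18, -1.45 and -0.89. The 3 groups overlapped. The WT libraries fell apart by number: numbers 1 and 2 had -0.73 to 0.19 and numbers 3 and 4 had -2.21 to -1.39, a difference of -1.42 that exceeded the differences between group means (-0.88 for Dnmt1 KO minus WT, 0.06 for Dicer/Dnmt1 KO minus WT, 0.94 for Dicer/Dnmt1 KO minus Dnmt1 KO). Two-sided exact permutation tests of these differences gave p = 0.097, 0.901 and 0.0857 (adjusted over 9 tests of Ifih1, Irf7 and Isg15: 0.291, 0.962 and 0.291). The smallest p possible was 0.00202 against WT and 0.0286 between the knockouts.

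Mavs (ENSMUSG00000037523, chr2:131059799-131073761, plus strand, 7 exons), the adaptor downstream of both helicases, had WT values of 2.91, 3.28 and 3.54 log2 RPM (lowest, median, highest). Dnmt1 KO libraries 1A, 1B, 2A and 2B had 3.00, 3.11, 3.21 and 3.04. Dicer/Dnmt1 KO libraries had 3.73, 3.98, 3.45 and 3.36, all above every Dnmt1 KO library, but with number 2 inside the WT range. Mavs was 1.45-fold higher in Dicer/Dnmt1 KO than in Dnmt1 KO (log2 difference 0.54, SE 0.14, adjusted p = 0.00618). Averaging A and B gave an adjusted p of 0.11, and of 0.0429 when WT number 4, which enters only the estimate of the spread, was left out too. Against WT it was 1.28-fold higher (0.35, SE 0.12, adjusted p = 0.0171), a call that was lost with A and B averaged (adjusted p = 0.122), without Dicer/Dnmt1 KO 1A or 1B (adjusted p = 0.0563 and 0.104) and against WT numbers 1 and 2 only (difference 0.20, adjusted p = 0.165). In Dnmt1 KO against WT the difference was -0.18 (95% interval -0.44 to 0.07). It was -0.33 against WT numbers 1 and 2 only (adjusted p = 0.0338) and -0.03 against WT numbers 3 and 4 only (adjusted p = 0.837), so the choice of WT libraries decided it.

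**Figure D2:**
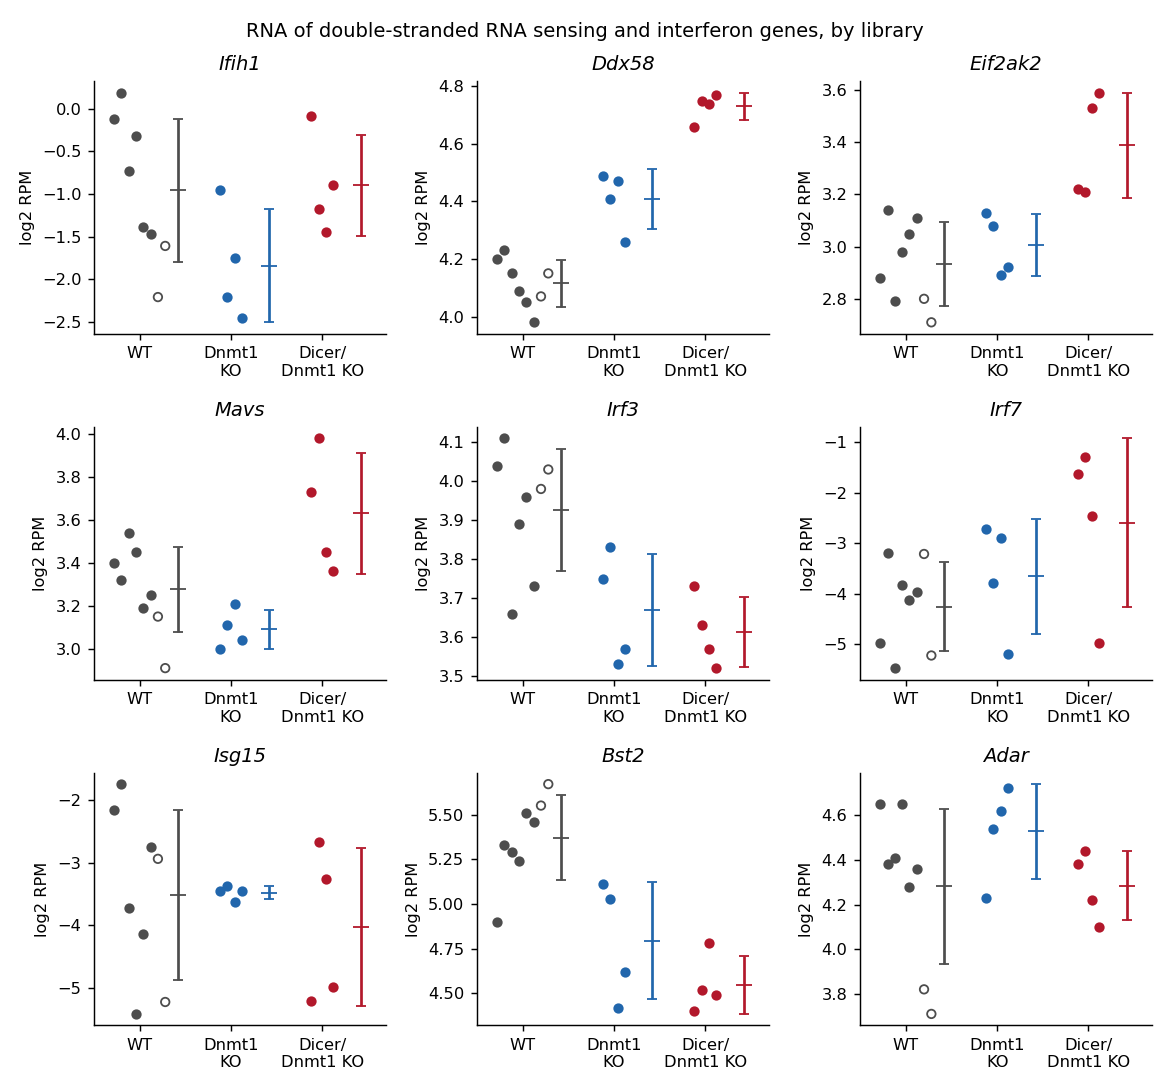
Each point is the log2 RPM of a gene in 1 library, with WT in grey, Dnmt1 KO in blue and Dicer/Dnmt1 KO in red, open circles for WT number 4, and the group mean with its SD as a bar to the right. Vertical axes differ between genes and do not start at 0. Ddx58 separated all 3 groups, Eif2ak2 separated Dicer/Dnmt1 KO from the others, and the points of Ifih1, Irf7 and Isg15 overlapped between groups.

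Irf3 (ENSMUSG00000003184, chr7:52253018-52258218, plus strand, 8 exons), a transcription factor that is present before stimulation and activated by phosphorylation, was lower in both knockouts. WT values were 3.66, 3.97 and 4.11 log2 RPM (lowest, median, highest). Dnmt1 KO had 3.75, 3.83, 3.53 and 3.57, and Dicer/Dnmt1 KO had 3.73, 3.63, 3.57 and 3.52. Of these, 2 of 4 Dnmt1 KO and 3 of 4 Dicer/Dnmt1 KO libraries were below the lowest WT library. Irf3 fell by 16.2% in Dnmt1 KO (log2 difference -0.25, SE 0.09, adjusted p = 0.0332) and fell by 19.5% in Dicer/Dnmt1 KO (-0.31, SE 0.09, adjusted p = 0.00656). Both calls were lost with A and B averaged (adjusted p = 0.228 and 0.0905). The call in Dnmt1 KO was also lost when WT 1B, WT 3A, Dnmt1 KO 2A or Dnmt1 KO 2B was left out (adjusted p = 0.0517 to 0.126), or WT number 4 (adjusted p = 0.0617). That in Dicer/Dnmt1 KO was lost after removal of the trend with transcript length, where the difference was -0.19 (adjusted p = 0.0549). Between the knockouts the difference was -0.06 (95% interval -0.28 to 0.16). Irf3 overlaps Bcl2l12 on the opposite strand over 1065 bases. The libraries were stranded, but whether genes were counted by strand is not given in the sources used here, so reads of this stretch may belong to either gene.

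Irf7 (ENSMUSG00000025498, chr7:148448605-148452380, minus strand, 10 exons), which in many cells is itself induced by interferon and amplifies it, was nearly without reads. WT libraries held 0 to 5 reads and Dnmt1 KO libraries 5, 3, 5 and 0 reads, while Dicer/Dnmt1 KO libraries held 12, 13, 7 and 1 reads. The group sums were 19 reads in 8 WT libraries, 13 in 4 Dnmt1 KO libraries and 33 in 4 Dicer/Dnmt1 KO libraries, or means of 0.055, 0.0898 and 0.237 RPM. In Dicer/Dnmt1 KO 3 of 4 libraries were above every other library, and 1 was not. The exact permutation test gave p = 0.0566 for Dicer/Dnmt1 KO against WT (adjusted p = 0.291), 0.299 for Dnmt1 KO against WT and 0.286 between the knockouts (adjusted p = 0.538 for both). A fit with no filter on low values called the difference to WT (adjusted p = 0.0467). Irf7 overlaps Phrf1 on the opposite strand over 45 bases, and Phrf1 averaged 53.3 RPM.

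The interferon-stimulated gene Bst2 (ENSMUSG00000046718, chr8:74058163-74061336, minus strand, 5 exons) encodes tetherin, which holds budding viruses at the cell surface, and was lower in both knockouts. WT values were 4.90, 5.39 and 5.67 log2 RPM (lowest, median, highest). Dnmt1 KO libraries 1A, 1B, 2A and 2B had 5.11, 5.03, 4.42 and 4.62, and Dicer/Dnmt1 KO libraries had 4.40, 4.52, 4.78 and 4.49. All Dicer/Dnmt1 KO libraries were below every WT library, whereas number 1 of Dnmt1 KO lay inside the WT range. Bst2 fell by 43.4% in Dicer/Dnmt1 KO (log2 difference -0.82, SE 0.14, adjusted p = 7.42e-05) and fell by 32.8% in Dnmt1 KO (-0.57, SE 0.14, adjusted p = 0.00302). The first call stayed with A and B averaged (adjusted p = 0.00757), and the second had adjusted p = 0.0578. The WT libraries were not alike here: numbers 3 and 4 had 5.46 to 5.67 and numbers 1 and 2 had 4.90 to 5.33. Against WT numbers 1 and 2 only, the differences were -0.64 (adjusted p = 0.00129) in Dicer/Dnmt1 KO and -0.39 (adjusted p = 0.0332) in Dnmt1 KO. After removal of the trend of each library with transcript length, the difference in Dicer/Dnmt1 KO was -0.39 (adjusted p = 0.000261). Between the knockouts the difference was -0.25 (95% interval -0.58 to 0.09).

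Isg15 (ENSMUSG00000035692, chr4:155573533-155574927, minus strand, 2 exons), a ubiquitin-like protein that is among the genes most responsive to interferon in other cells, was at the limit of detection in every group. WT libraries held 0 to 11 reads, Dnmt1 KO libraries 3, 4, 3 and 3 reads, and Dicer/Dnmt1 KO libraries 1, 5, 4 and 1 reads. Mean levels were 0.119, 0.0898 and 0.0802 RPM, at or close to the floor of 3 reads. The exact permutation test gave p = 0.962 for Dnmt1 KO against WT, 0.517 for Dicer/Dnmt1 KO against WT and 0.429 between the knockouts (adjusted p = 0.962, 0.665 and 0.643). A difference was not detectable at this depth. The promoter of Isg15 was the one with the most ISRE matches among the 9 genes, as its sequence above shows.

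Adar (ENSMUSG00000027951, chr3:89518944-89557368, plus strand, 15 exons) encodes the enzyme that edits adenosine to inosine in double-stranded RNA and so keeps cellular double-stranded RNA from being sensed. WT values were 3.71, 4.37 and 4.65 log2 RPM (lowest, median, highest), Dnmt1 KO had 4.23, 4.54, 4.62 and 4.72, and Dicer/Dnmt1 KO had 4.38, 4.44, 4.22 and 4.10. The 3 groups overlapped, and the lowest values were those of WT 4A (3.82) and WT 4B (3.71). The difference was 0.25 in Dnmt1 KO (95% interval -0.08 to 0.58, adjusted p = 0.217), 0.00 in Dicer/Dnmt1 KO (-0.33 to 0.33, adjusted p = 0.995) and -0.25 between the knockouts (-0.63 to 0.13, adjusted p = 0.299). Without WT number 4 the differences to WT were 0.08 and -0.17 (adjusted p = 0.575 and 0.16). The difference in Dnmt1 KO was 0.01 against WT numbers 1 and 2 alone (adjusted p = 0.958) and passed the threshold against WT numbers 3 and 4 alone (0.49, adjusted p = 0.0116). After removal of the trend with transcript length, Adar was lower in Dicer/Dnmt1 KO than in WT (-0.30, adjusted p = 0.0117) and than in Dnmt1 KO (-0.44, adjusted p = 0.00466).

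The WT libraries differed by number in 3 of the 6 tested genes, where numbers 1 and 2 did not overlap with numbers 3 and 4, beside 26.1% of all tested genes. Numbers 3 and 4 were higher than numbers 1 and 2 by 0.36 log2 in Bst2, and their differences were -0.48 in Adar and -0.30 in Mavs. In Ddx58 (-0.11), Eif2ak2 (-0.03) and Irf3 (0.00) they overlapped. The labels give no reason for these differences, and what set them was not tested.

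Compared per kilobase of exon, since read counts grow with length, the 9 genes fell into 3 ranges in WT. Bst2 was the most abundant, at 54.7 ± 8.58 RPM per kb (SD, n = 8). Irf3 (4.79 ± 0.498), Adar (2.94 ± 0.65), Mavs (2.92 ± 0.386), Ddx58 (2.46 ± 0.143) and Eif2ak2 (1.5 ± 0.169) followed, and the library ranges of Adar, Mavs and Ddx58 overlapped, so that these neighbours could not be ordered. Isg15 (0.158 ± 0.135), Ifih1 (0.108 ± 0.0596) and Irf7 (0.0182 ± 0.014) were lowest, and the range of Isg15 overlapped those of Ifih1 and Irf7. Bst2 was also the most abundant in the knockouts, where Dnmt1 KO libraries spanned 28.0 to 45.2 and Dicer/Dnmt1 KO libraries averaged 30.8 ± 3.61 (SD, n = 4). Ddx58 reached 3.02 ± 0.212 in Dnmt1 KO, and its Dicer/Dnmt1 KO mean was 3.76 ± 0.123, where its range (3.58 to 3.86) overlapped that of Irf3 (3.60 to 4.15). The order of Ddx58 depends on the length used: its exons together cover 7050 bases and its longest transcript 3874, and by the latter it stood at 4.48 RPM per kb in WT, above Adar (3.37) and Mavs (3.19).

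**Figure D3:**
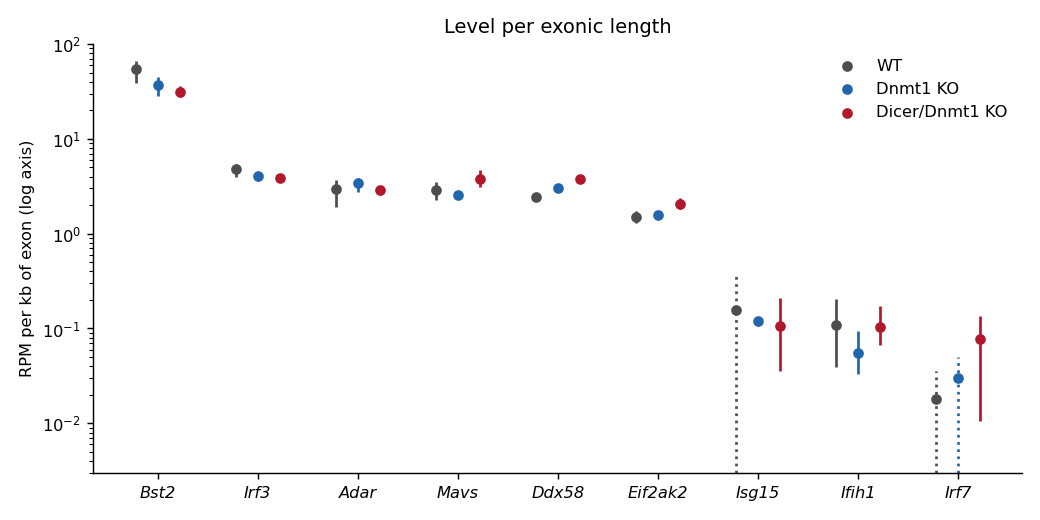
Mean level per kilobase of exon (points) with the range over libraries (lines) on a log axis, for the 3 groups, ordered by the WT mean. Dotted lines run to the axis where a library held no reads. Bst2 stands above the other genes in each group, and Isg15, Ifih1 and Irf7 have the lowest means, at most 0.158 RPM per kb.

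The genes that would carry an interferon response were then examined by list. Of 8 interferon genes (Ifnb1, Ifna1, Ifna2, Ifna4, Ifna5, Ifna6, Ifne and Ifnk), 7 held 0 reads in all 16 libraries, which allows up to 3 reads or 0.0571 to 0.0954 RPM in each, and Ifne held 1 read in 1 library. Of the 16 genes of the list, the 8 receptor and JAK-STAT genes were tested. In Dicer/Dnmt1 KO 5 of the 8 rose and 0 fell against WT (beside 31.9% of all tested genes higher and 30.1% lower), with a median log2 change of 0.49 beside 0.02 over all tested genes, and 5 of 8 rose also with A and B averaged (beside 21.6%). Among them were Irf9, the DNA-binding subunit of the complex that interferon activates, which rose 1.95-fold against WT (log2 0.97, SE 0.08, adjusted p = 1.24e-08), Jak1 (0.83, SE 0.11, adjusted p = 6.68e-06), Tyk2 (0.62, SE 0.08, adjusted p = 3.12e-06) and the receptor chain Ifnar1 (0.37, SE 0.08, adjusted p = 0.000806). In Dnmt1 KO Tyk2 (0.45) and Socs1 (0.57) rose and Ifnar2 (-0.25) fell (beside 23.5% higher and 17.5% lower), with a median of 0.17 beside 0.04, and with A and B averaged the calls of Socs1 (adjusted p = 0.115) and Ifnar2 (adjusted p = 0.242) were lost. Socs1, Ifnar1 and Ifnar2 are named here outside the rule for named genes, after their values were seen. Between the knockouts 3 rose and 0 fell (beside 16.9% and 19.4%), among them Irf9 (1.00, SE 0.09, adjusted p = 3.17e-07) and Jak1 (0.65, SE 0.13), and of the 3 Irf9 alone stayed past the threshold with A and B averaged (adjusted p = 0.00584).

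Interferon-stimulated genes other than the members moved in both directions. Of 35 listed genes 22 were tested. In Dnmt1 KO 4 rose and 8 fell (beside 23.5% and 17.5% of all tested genes, median -0.03). In Dicer/Dnmt1 KO against WT 6 rose and 6 fell (beside 31.9% and 30.1%, median 0.06). Between the knockouts 7 rose and 2 fell (beside 16.9% and 19.4%, median 0.20 beside -0.01 over all tested genes). After averaging A and B the counts were 1 and 6 (beside 11% higher and 6.74% lower), 5 and 4 (beside 21.6% and 18.2%), and 3 and 0 (beside 5.28% and 4.22%). Lower in both knockouts were Gbp2, an interferon-induced GTPase (-2.05 and -2.45, SE 0.24 in each, adjusted p = 4.05e-06 and 2.1e-07), Psmb8, a subunit of the immunoproteasome (-1.89 and -1.70), and Gbp3 (-1.03 and -1.26), each below every WT library in either knockout. Between the knockouts Ifitm1 (1.10, SE 0.15, adjusted p = 3.2e-05) and Ifitm3 (0.79, SE 0.10, adjusted p = 1.76e-05), which encode membrane proteins that hinder viral entry, and Parp14 (0.78, SE 0.15) were higher in Dicer/Dnmt1 KO. Against WT, outside the rule for named genes, Ifitm1 fell in Dnmt1 KO (-0.81, adjusted p = 0.000104). In Dicer/Dnmt1 KO its difference to WT was not called (0.29, adjusted p = 0.0585). Ifitm3 and Parp14 were higher in Dicer/Dnmt1 KO than in WT (0.86 and 0.94, adjusted p = 2.87e-07 and 6.64e-06). The classical markers Ifit1, Ifit3, Mx1, Mx2 and Ccl5 did not pass the filter, with at most 13, 9, 5, 5 and 1 reads in any library (these, too, named after their values were seen). Rsad2, named after its values were seen, held 0 to 8 reads in WT, 13 to 36 in Dnmt1 KO and 13 to 22 in Dicer/Dnmt1 KO and was not tested. Of the others under the filter, Ddx60 held 7 to 31 reads in WT, 19 to 25 in Dnmt1 KO and 25 to 35 in Dicer/Dnmt1 KO. In that order Ifit2 held 19 to 44, 19 to 35 and 13 to 24, and Cmpk2 19 to 45, 24 to 32 and 21 to 40. Ifi44, Rtp4 and Sp100 held at most 3, 9 and 6 reads.

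Among 18 further sensors of double-stranded RNA and their cofactors, 9 were tested. In Dnmt1 KO 3 rose and 5 fell (beside 23.5% and 17.5% of all tested genes, median -0.55). In Dicer/Dnmt1 KO against WT 4 rose and 3 fell (beside 31.9% and 30.1%, median 0.35). Between the knockouts 3 rose and 0 fell (beside 16.9% and 19.4%, median 0.26). The counts with A and B averaged were 0 and 4, 2 and 3, and 2 and 0. Beside them stood 11% and 6.74%, 21.6% and 18.2%, and 5.28% and 4.22% of all tested genes. Zc3hav1, which encodes the antiviral zinc-finger protein ZAP, was 5.81 to 6.17 log2 RPM in Dicer/Dnmt1 KO, above WT (3.91 to 5.06) and Dnmt1 KO (4.06 to 4.24). Its differences were 1.37 (SE 0.18, adjusted p = 4.4e-06) and 1.76 (SE 0.20, adjusted p = 6.84e-06), and both stayed past the threshold with A and B averaged (adjusted p = 0.00259 and 0.0088). Trim25, a ubiquitin ligase that serves RIG-I and ZAP, was higher in Dicer/Dnmt1 KO than in WT by 1.05 (SE 0.22, adjusted p = 0.000503). Outside the rule for named genes, Trim25 was also higher in Dnmt1 KO (0.79, adjusted p = 0.00778, and 0.0732 with A and B averaged). Between the knockouts its difference was not called (0.26, adjusted p = 0.441). Oasl2, of the oligoadenylate synthetase family, fell by 1.75 in Dnmt1 KO (SE 0.27, adjusted p = 6.31e-05) and fell by 1.34 in Dicer/Dnmt1 KO (SE 0.27, adjusted p = 0.000375) on the log2 scale. Others of this family are named after their values were seen. Oas3 fell in both knockouts (-0.55 and -0.83) and Oas1c in Dnmt1 KO (-1.14). Oas1a, Oas1b, Oas1g, Oas2 and Oasl1 were not tested. Oas1a held 3 to 11 reads in WT, 7 to 30 in Dnmt1 KO and 24 to 49 in Dicer/Dnmt1 KO. In that order Oas1g held 0 to 9, 8 to 15 and 9 to 16, and Oas2 7 to 17, 4 to 26 and 14 to 31. Oas1b and Oasl1 held at most 22 and 18.

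The 20 genes that carry the signal from Mavs and Tlr3 were all tested. In Dnmt1 KO 5 rose and 3 fell (beside 23.5% and 17.5% of all tested genes, median 0.05). In Dicer/Dnmt1 KO against WT 8 rose and 4 fell (beside 31.9% and 30.1%, median 0.19). Between the knockouts 4 rose and 1 fell (beside 16.9% and 19.4%, median 0.13). Averaged over A and B, the counts were 2 and 1, 4 and 4, and 1 and 1. Beside them stood 11% and 6.74%, 21.6% and 18.2%, and 5.28% and 4.22% of all tested genes. Ripk1, a kinase that links the adaptors to NF-kappa B, rose in both knockouts (0.70, SE 0.09, adjusted p = 5.97e-06, and 0.92, SE 0.09, adjusted p = 8.98e-08). Irf1, a transcription factor of the interferon response, was below every WT library in both (-0.79, SE 0.15, adjusted p = 0.000314, and -0.57, SE 0.15, adjusted p = 0.00267). Traf3 rose in Dnmt1 KO (0.49, SE 0.10), and Fadd in Dicer/Dnmt1 KO against WT (0.64, SE 0.13) and against Dnmt1 KO (0.42, SE 0.15). Between the knockouts Ikbkb, a kinase that activates NF-kappa B, was higher in Dicer/Dnmt1 KO (0.75, SE 0.11, adjusted p = 7.86e-05), and Tomm70a, the mitochondrial import receptor that binds Mavs, was lower (-0.49, SE 0.07, adjusted p = 3.57e-05).

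**Figure D4:**
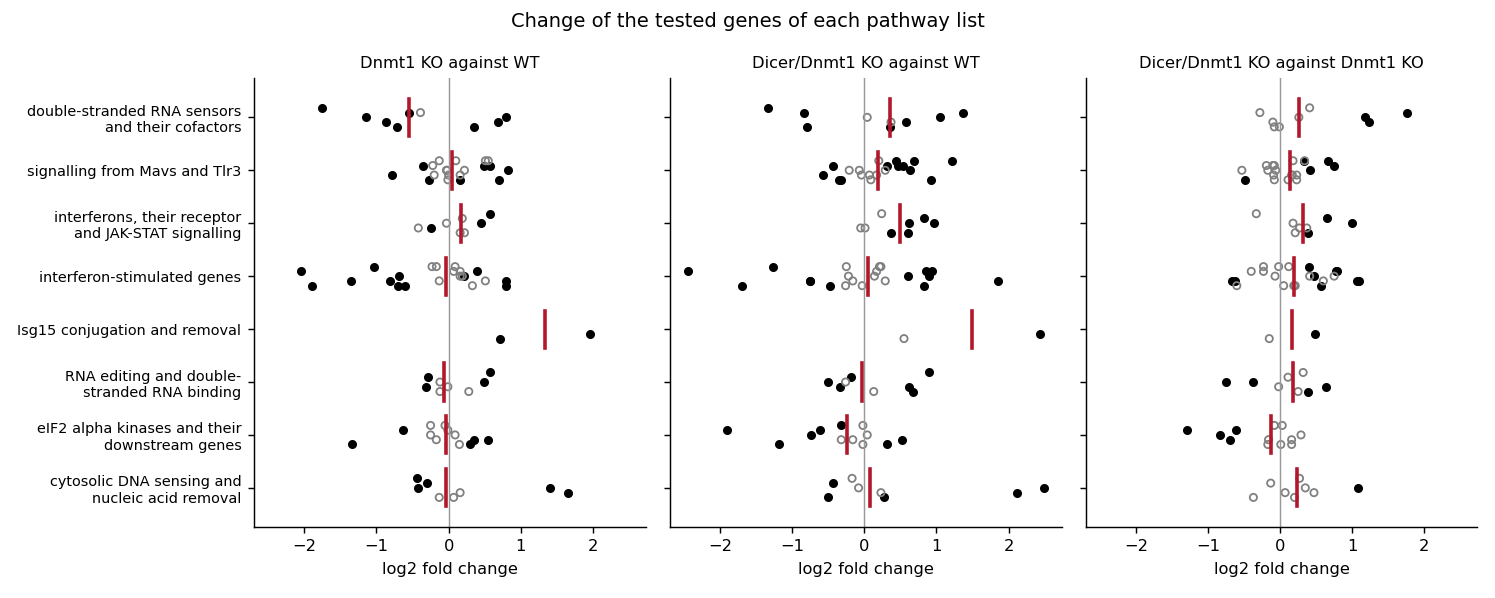
The log2 fold change of each tested gene of 8 pathway lists is plotted for the 3 comparisons, with filled points for genes past an adjusted p of 0.05 in the fit to 16 libraries and a red bar at the median of the list. In Dnmt1 KO against WT every list but that of Isg15 conjugation holds changed genes on both sides of 0. In Dicer/Dnmt1 KO against WT all 5 changed genes of the interferon receptor and JAK-STAT list lie to the right.

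Of the genes that attach Isg15 to proteins or remove it, 2 of 4 were tested. Ube2l6, the conjugating enzyme, was 1.02 to 1.85 log2 RPM in WT, 3.33 to 3.46 in Dnmt1 KO and 3.75 to 3.98 in Dicer/Dnmt1 KO. It rose 3.88-fold in Dnmt1 KO (log2 1.96, SE 0.14, adjusted p = 1.12e-08) and 5.41-fold in Dicer/Dnmt1 KO (2.44, SE 0.14, adjusted p = 2.61e-10), and both calls stayed with A and B averaged (adjusted p = 0.000115 and 1.93e-05). Isg15 itself held at most 11 reads in any library, as given above. The ligase Herc6 rose in Dnmt1 KO (0.71, SE 0.26, adjusted p = 0.0383, and 0.155 with A and B averaged) and had a difference of 0.55 (adjusted p = 0.0739) in Dicer/Dnmt1 KO. Uba7 and Usp18 did not pass the filter.

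Of the kinases that act on eIF2 alpha beside Eif2ak2 and their downstream genes, 12 were tested. In Dnmt1 KO 3 rose and 2 fell (beside 23.5% and 17.5% of all tested genes, median -0.03). In Dicer/Dnmt1 KO against WT 2 rose and 5 fell (beside 31.9% and 30.1%, median -0.24). Between the knockouts 0 rose and 4 fell (beside 16.9% and 19.4%, median -0.12). These counts became 1 and 1, 2 and 4, and 0 and 3 with A and B averaged. Beside them stood 11% and 6.74%, 21.6% and 18.2%, and 5.28% and 4.22% of all tested genes. Atf4, the transcription factor whose translation rises when eIF2 alpha is phosphorylated, fell by 0.74 on the log2 scale against WT (SE 0.09, adjusted p = 3.57e-06) and fell by 0.83 against Dnmt1 KO (SE 0.11, adjusted p = 2.15e-05) in Dicer/Dnmt1 KO, and its target Chac1 had differences of -1.91 and -1.29 (adjusted p = 4.6e-07 and 0.000443). Asns, also a target, fell by 1.34 in Dnmt1 KO and fell by 1.18 in Dicer/Dnmt1 KO (SE 0.12 in each, adjusted p = 1.23e-07 and 2.44e-07). Trib3 rose in Dnmt1 KO (0.54, SE 0.11) and was lower in Dicer/Dnmt1 KO than in Dnmt1 KO (-0.69, SE 0.13). Eif2ak3, the kinase of the endoplasmic reticulum, rose in Dnmt1 KO (0.35, SE 0.07, adjusted p = 0.00111) and, outside the rule for named genes, in Dicer/Dnmt1 KO against WT (0.52, SE 0.07, adjusted p = 1.49e-05, and 0.00975 with A and B averaged).

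Of the genes of RNA editing and double-stranded RNA binding other than Adar, 8 were tested. In Dnmt1 KO 2 rose and 2 fell (beside 23.5% and 17.5% of all tested genes, median -0.06). In Dicer/Dnmt1 KO against WT 3 rose and 3 fell (beside 31.9% and 30.1%, median -0.03). Between the knockouts 2 rose and 2 fell (beside 16.9% and 19.4%, median 0.18). The averaged counts were 0 and 0, 3 and 2, and 0 and 1. Beside them stood averaged shares of 11% and 6.74%, 21.6% and 18.2%, and 5.28% and 4.22% of all tested genes. Tarbp2, a partner of Dicer, rose in Dnmt1 KO (0.49, SE 0.13, adjusted p = 0.00472) and was lower in Dicer/Dnmt1 KO than in Dnmt1 KO (-0.75, SE 0.14, adjusted p = 0.000696). Stau2 rose (0.67, SE 0.11) and Ilf2 fell (-0.50, SE 0.10) in Dicer/Dnmt1 KO against WT, Ilf2 was also lower than in Dnmt1 KO (-0.38, SE 0.11), and Strbp fell in both knockouts (-0.32 and -0.34, SE 0.06 in each). In the cytosolic DNA sensing and nucleic acid removal list, 8 genes were tested. Beside the same shares of all tested genes, 2 rose and 3 fell in Dnmt1 KO (median -0.03). In Dicer/Dnmt1 KO against WT 3 rose and 2 fell (median 0.07), and 1 rose and 0 fell between the knockouts (median 0.24). The averaged counts here were 2 and 0, 2 and 1, and 1 and 0, again beside the averaged shares just given. The sensor cGAS, listed as E330016A19Rik, a RefSeq synonym of Cgas, was -0.37 to 0.23 log2 RPM in WT, 1.18 to 1.64 in Dnmt1 KO and 2.41 to 2.60 in Dicer/Dnmt1 KO. It rose 2.65-fold in Dnmt1 KO (log2 1.41, SE 0.14, adjusted p = 3.67e-07) and 5.62-fold in Dicer/Dnmt1 KO (2.49, SE 0.14, adjusted p = 1.37e-10), and was 2.12-fold higher in Dicer/Dnmt1 KO than in Dnmt1 KO (1.08, SE 0.16, adjusted p = 5.79e-05). Rnaseh2b fell in Dnmt1 KO (-0.44, SE 0.09). Some calls of genes named from the lists were lost with A and B averaged. In Dnmt1 KO these included Tarbp2 (adjusted p = 0.085), Strbp (0.0723), Eif2ak3 (0.0764), Rnaseh2b (0.0634) and Oas3 (0.0831). Between the knockouts they included Fadd (0.184), Ilf2 (0.17), Jak1 (0.0587) and Ube2l6 (0.142).

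The label of the cells was checked against markers. All 11 ESC markers found in the table were above 1 RPM in every library. Their summed level was 2220 to 3540 RPM in WT, 2010 to 2640 in Dnmt1 KO and 2140 to 2440 in Dicer/Dnmt1 KO. Of the 11, 0 rose and 3 fell in Dnmt1 KO (beside 23.5% and 17.5% of all tested genes). In Dicer/Dnmt1 KO against WT 1 rose and 3 fell (beside 31.9% and 30.1%). Between the knockouts 3 rose and 3 fell (beside 16.9% and 19.4%). Sox2, Nanog and Klf4 fell in Dnmt1 KO, and Lin28a, Tdgf1 and Utf1 in Dicer/Dnmt1 KO. With A and B averaged 0 and 2, 0 and 3, and 1 and 1 were called. The shares were then 11% and 6.74%, 21.6% and 18.2%, and 5.28% and 4.22%. Of 12 markers of feeder fibroblasts, whose own interferon genes would be read together with those of the ESCs, the summed level was 67.0 to 98.7 RPM in WT, 111 to 127 in Dnmt1 KO and 108 to 174 in Dicer/Dnmt1 KO. Of the 9 tested, 4 rose and 1 fell in Dnmt1 KO (beside 23.5% and 17.5% of all tested genes). In Dicer/Dnmt1 KO against WT 7 rose and 1 fell (beside 31.9% and 30.1%). Between the knockouts 1 rose and 1 fell (beside 16.9% and 19.4%). Averaging A and B left 2 and 1, 5 and 1, and 1 and 0 feeder markers called, beside the averaged shares given above. Col1a1 rose in both knockouts against WT (1.40 and 1.72) and Mmp2 fell in both (-0.79 and -1.19). Lum, Dcn and Twist2 stayed under 1 RPM in every library. The summed level of 8 immune cell markers was 8.61 to 12.7 RPM in WT, 8.4 to 18.6 in Dnmt1 KO and at least 14.1 in Dicer/Dnmt1 KO (median 17.2, against 11.3 in WT). Of its 3 tested genes 2 rose in Dicer/Dnmt1 KO relative to WT (beside 31.9%) and 2 relative to Dnmt1 KO (beside 16.9%), with 1 shared by both pairs. With A and B averaged 1 and 0 did (beside 21.6% and 5.28%). Feeder and immune cell markers rose in Dicer/Dnmt1 KO against WT, where Ddx58, Eif2ak2, Ube2l6 and cGAS rose too. Bst2, Irf3, Irf1, Gbp2, Psmb8 and 1 feeder marker fell there. In Dnmt1 KO 4 feeder markers rose beside Ddx58, Ube2l6 and cGAS, while Eif2ak2 was not called. Again Bst2, Irf3, Irf1, Gbp2, Psmb8 and 1 feeder marker fell. Between the knockouts, where all of Ddx58, Eif2ak2, Ube2l6 and cGAS were higher, 1 feeder and 2 immune cell markers rose and 1 feeder marker fell. Bst2, Irf3, Irf1, Gbp2 and Psmb8 were not called between the knockouts. The genes set beside the markers were picked after their values were seen. The part of the marker genes' cells in those results was not tested.

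Over the 16 libraries the pattern was most like that of Sh3rf2 for Ddx58 (Pearson r = 0.97), Avl9 for Eif2ak2 (0.90), Fam125b for Mavs (0.96) and Csnk2a1 for Bst2 (0.99). With group means removed these correlations were 0.68, 0.83, 0.90 and 0.96. The genes of a pair share the depth of each library and any difference among the WT libraries, and the most alike of 12892 genes was picked, so the values describe the libraries only.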

How the data were processed

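The genes, gene lists and tests were chosen with earlier results of these data known. Reads were trimmed by the authors (Trim Galore 0.3.5), aligned to NCBIM37 (TopHat2 2.0.11, versions per the submitters' processing notes), filtered on mapping quality and quantified per gene in SeqMonk. The deposited values are log2 RPM, and a gene without reads is written as 0.9 read. Linear values were set back to whole reads (100% of values whole within 0.02 reads). A further 35 value columns were not used.

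limma 3.58.1 (R 4.3.3) fitted group means to the deposited log2 RPM of 12892 genes above 1 RPM in at least 4 libraries, with an intensity trend. Benjamini-Hochberg adjustment ran over all of them, and an adjusted p under 0.05 was called changed. The study used a count model. None was fitted here, although whole reads could be set back. The script was tested on simulated data. Genes under the filter had exact permutation tests (scipy). Named list genes are up to 3 per list and comparison with the largest called change, at least 2 RPM and groups that do not overlap. Gene models came from GENCODE M1 (NCBIM37). Promoters came from RefSeq (GRCm38.p6), a different build from that of the gene coordinates, and 1-based. Alternatives changed the replicate unit, WT libraries, scaling, pseudocount, filter, variance trend, length and threshold. The labels give no sequencing date or other batch. Values of a few single genes are not reported here.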

Additional observations from a re-analysis of the deposited data

How the results depend on the processing

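Of 594 values of single genes under the alternatives, 532 kept their side of the threshold and 57 fell short of it. A further 4 newly passed it and 1 was counted as reversed. The 532 include values that changed sign without being called in either fit. With the length trend removed, Bst2 between the knockouts went from -0.25 to 0.06 and Irf3 from -0.06 to 0.06. The reversed value was Adar in Dicer/Dnmt1 KO against WT, 0.00 as reported and -0.30 with the length trend removed. The numbers of genes called, 3 in Dnmt1 KO against WT, 5 in Dicer/Dnmt1 KO against WT and 3 in Dicer/Dnmt1 KO against Dnmt1 KO, became 0, 3 and 0 with A and B averaged, 1, 3 and 0 with the number as a random block, 0, 3 and 0 with letter A only, 1, 2 and 0 with letter B only, and 0, 0 and 0 with a minimum change of 2-fold. Averaging and single letters leave fewer libraries, and otherwise the cause was not tested. Leaving out WT number 4, chosen after seeing the data, gave 2, 5 and 3, and 0, 2 and 1 with A and B averaged as well. Leaving out each library in turn gave 2 to 3, 4 to 5 and 2 to 3 genes. With the full label as a replicate block the counts were 3, 4 and 3, where in Dnmt1 KO Mavs passed the threshold (-0.33, adjusted p = 0.0473) and Bst2 missed it (-0.39, adjusted p = 0.0515), and in Dicer/Dnmt1 KO against WT Mavs missed it (0.20, adjusted p = 0.189). The correlation of deviations between libraries with the same label ranged from -0.418 to 0.372. The libraries were not treated as paired, and whether those with the same label share more than the label is not known. No scaling moved the median change of all genes by over 0.1. Depth limits Ifih1, Irf7 and Isg15, and the number of cultures behind the libraries is not known.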
